A study of Mus musculus with 6 samples.

Results

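Lymphatic endothelial cells line the vessels that return tissue fluid and immune cells to the blood. In collecting vessels, which pump lymph towards the nodes between one-way valves, they keep tighter junctions than the lymphatic capillaries and answer to flow, stretch and inflammatory signals. PROX1 is the transcription factor that sets and holds their identity, VEGFR3 (Flt4) is the receptor for their main growth factor, and MMRN1 is a secreted adhesive protein of endothelium.

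The cells described here are the lymphatic endothelium of the 12-month and 6-week libraries, 93 cells of 20086 barcodes kept in 4 libraries and of 24488 kept in the series of 6. A barcode was kept if 500 genes or more were detected in it and if mitochondrial genes took no more than 10% of its UMIs (unique molecular identifiers, 1 per captured transcript). It was taken as lymphatic endothelium with at least 3 UMIs of Prox1, Mmrn1 and Flt4 together, at least 1 of the endothelial adhesion genes Pecam1 and Cdh5, and 0 of the leukocyte gene Ptprc and of Gpihbp1, a gene of blood capillaries.

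Dermal collecting vessels running from the inguinal to the axillary node, with some surrounding tissue, were dissected from C57BL/6 mice, digested with enzymes and put through 10x 3′ single-cell sequencing. Evans Blue had been injected into the inguinal node in all groups to show the vessels. The 12-month (middle-aged) group has 1 library labelled male and 1 labelled female, and so has the 6-week (young) group; no transgene, mutation or drug treatment other than the anaesthetic distinguishes or is shared by them in the labels. How many mice were pooled in a library is not stated, so p-values measure only the spread between these libraries, which may be technical.

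The libraries hold from 9616652 to 28921825 UMIs, and the gated sums are small. The library labelled 12-month male gave 15 lymphatic endothelial cells with 62509 UMIs in all, and the one labelled 12-month female gave 50 cells with 358212 UMIs. The 6-week male library gave 12 cells with 68743 UMIs and the 6-week female library 16 cells with 81115 UMIs. So 1 library holds most of the 12-month cells. No sum is deep: 1 UMI is worth 16 CPM (UMIs scaled to a common total, counts per 1000000) in the library labelled 12-month male.

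**Figure D1:**
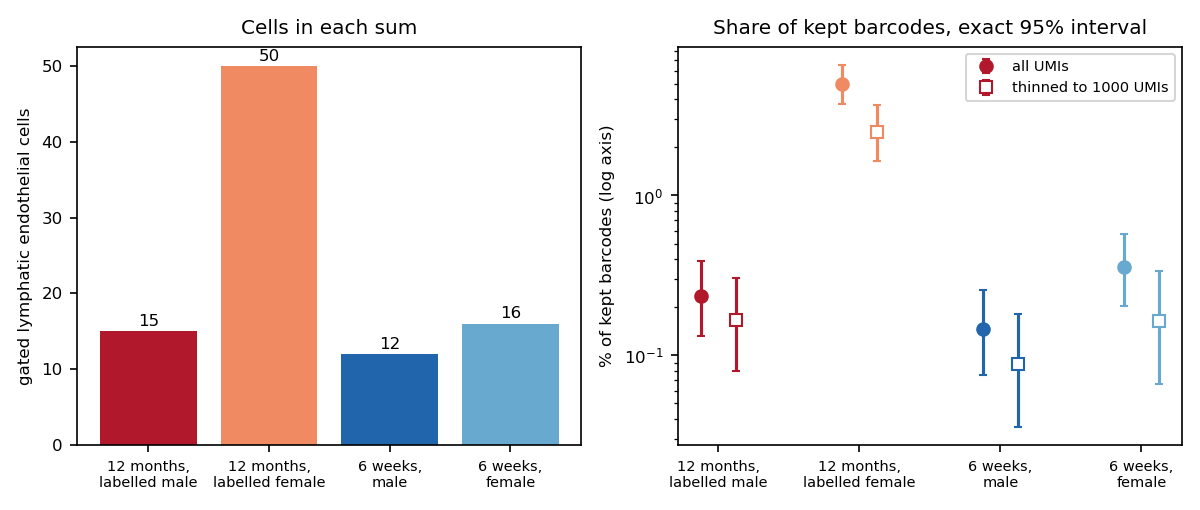
Left, number of gated lymphatic endothelial cells in each library; right, their share of kept barcodes on a log axis, with exact 95% binomial intervals, from all UMIs (filled circles) and after each barcode was thinned to 1000 UMIs (open squares). The library labelled 12-month female stands above the other 3 at 5.01%, or 2.51% after thinning.

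As a share of kept barcodes, gated cells made up 0.236% in the library labelled 12-month male (exact 95% interval 0.132 to 0.389%) and 5.01% in the one labelled 12-month female (3.74 to 6.55%). They made up 0.146% in the 6-week male library (0.0754 to 0.255%) and 0.356% in the 6-week female library (0.203 to 0.577%). The intervals cover counting error only. The high share belongs to 1 library and not to an age, and with 2 libraries a side an exact two-sided permutation test cannot give a p below 0.333. That library also has the fewest kept barcodes, 999, and the highest median depth, 7508 UMIs, against 2536 in the library labelled 12-month male and 2619.5 and 2829.5 in the 6-week libraries. With every barcode thinned to 1000 UMIs before gating, the shares were 0.165% and 2.51% at 12 months, against 0.0885% and 0.163% at 6 weeks. The part of dissection and digestion in these shares was not tested.

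Before any comparison, 3 facts set the libraries apart. The sex genes go against the labels of both 12-month libraries in these cells: Xist, expressed from the inactive X chromosome of females, had 70 UMIs in the library labelled male and 0 in the one labelled female, and Y-linked Ddx3y had 0 and 49. In the 6-week libraries they follow the labels, with 0 and 81 UMIs of Xist and 10 and 0 of Ddx3y in the male and female. Fibroblast markers (12 genes, such as collagens and decorin) summed to 1488 and 204 CPM at 12 months, against 9790 CPM in the 6-week male and 210 CPM in the 6-week female library, so 1 young library stands apart. Macrophage markers (13 genes) summed to 96.0 and 39.1 CPM at 12 months, against 29.1 CPM in the 6-week male and 752 CPM in the 6-week female library. Scrublet marked none of the 93 cells as a doublet, and it marked 0.1% of all barcodes in the library labelled 12-month female. In the 4 libraries, between 1 and 12 kept barcodes were shared by any pair.

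Some lymphatic genes outside the gate also set these cells apart. Set against all other kept barcodes of the same library, the genes with the highest ratio, when each gene is ranked by the lowest of its 4 libraries and Prox1 and Mmrn1 are set aside, were Nts (neurotensin), Ackr4, a scavenging receptor for chemokines, and Clca3a1. Nts stood at 3328 and 3858 CPM in the 12-month cells, against 698 and 5042 CPM in the 6-week cells, and was at most 140 CPM in the other barcodes of any library. Foxc2 and Tbx1, transcription factors of lymphatic valves and of lymphatic development, were also among the 40 highest. These ratios describe the gated cells and are no test, since the gate chose them.

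Markers of lymphatic capillaries were scarce. Lyve1, the hyaluronan receptor of capillaries, had 1 and 0 UMIs at 12 months, against 0 and 19 UMIs at 6 weeks, where the library with 19 is also the one with macrophage markers. Ccl21a, the chemokine that draws dendritic cells into capillaries, had 2 and 0 UMIs at 12 months and 0 in both 6-week sums. Reln, a gene of collecting vessel endothelium, had 0 and 1 UMIs at 12 months, against 1 and 0 at 6 weeks. Pdpn, a further lymphatic marker, had 96.0 and 69.8 CPM at 12 months, against 102 and 37.0 CPM at 6 weeks. In the other barcodes it had 143 and 281 CPM at 12 months, against 94.7 and 98.2 CPM at 6 weeks. Markers of blood endothelium (13 genes) summed to 1424 and 1203 CPM in the gated cells at 12 months, against 960 and 1270 CPM at 6 weeks. Of these lymphatic markers outside the gate, none set the gated cells apart. Ccl21a and Reln were scarce in every library, Lyve1 in all but the 6-week female library, and Pdpn was not raised over the other barcodes. Nts, Ackr4, Foxc2 and Tbx1 go with the label lymphatic endothelium, but they were taken from the ranking of these same gated cells. Whether the cells come from the collecting vessels themselves cannot be read from these markers.

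The genes of the gate itself are given as description only. Prox1 had 2768 and 1845 CPM at 12 months, against 1004 and 1110 CPM at 6 weeks. Mmrn1 had 1408 and 991 CPM at 12 months, against 698 and 530 CPM at 6 weeks. Flt4 had 80.0 and 134 CPM at 12 months, against 160 and 308 CPM at 6 weeks. Both 12-month libraries lie above both 6-week libraries for Prox1 and Mmrn1 and below them for Flt4, in cells that had to hold 3 UMIs of the 3 genes together.

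The comparison of ages asks which genes of lymphatic endothelium differ between mice of 12 months and of 6 weeks. UMIs were summed per library and 1317 genes passed the filter on low counts. With edgeR's quasi-likelihood test, 3 of them (0.228%) had a Benjamini-Hochberg adjusted p under 0.05, and all 3 were higher at 12 months: the heat shock genes Hspa1a and Hspa1b, and Gdf15, a secreted stress cytokine. None was lower (0.0%). At an unadjusted p under 0.05 there were 65 higher (4.94%) and 50 lower (3.8%), and DESeq2 called 4, the same 3 and Ptn, lower. Both 12-month libraries were above both 6-week libraries for 294 genes (22.3%) and below them for 250 (19%). With labelled sex as a covariate, which leaves 1 residual degree of freedom, edgeR called 23 genes higher (1.75%) and 6 lower (0.456%); with the labels of the 12-month pair exchanged it called 12 higher (0.911%) and 6 lower (0.456%). Leaving out 1 library gave 13 to 45 calls with these 3 among them, but each such fit has 1 library on a side, assumed to vary like those of the other age, and lends the calls no support. Leaving out the cell with most Gdf15 UMIs in each library gave 0 calls (119 at an unadjusted p under 0.05 by edgeR), with log2 fold changes of 4.01 for Hspa1a, 2.88 for Hspa1b and 2.68 for Gdf15. A limit of 5% on mitochondrial UMIs gave 0 calls as well (105 unadjusted), with 3.77, 2.80 and 2.74 for the same genes.

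Hspa1a and Hspa1b code for the stress-inducible HSP70 chaperones, which bind unfolded proteins and are switched on by heat shock factor 1. Hspa1a lies on chromosome 17 from 34969190 to 34972156 and Hspa1b from 34956436 to 34959238 (GRCm38, minus strand). The genes are near-identical copies, so how reads were shared between them is uncertain, and their separate values are best read together. Their upstream sequences, from RefSeq (GRCm38.p6), show how alike they are. In each, the 250 bases before the gene start are printed 5′ to 3′ on the minus strand, and capitals mark the match to GAANNTTC, a short form of the heat shock element, which starts 104 bases before the gene start.
Hspa1a, chr17:34972157-34972406: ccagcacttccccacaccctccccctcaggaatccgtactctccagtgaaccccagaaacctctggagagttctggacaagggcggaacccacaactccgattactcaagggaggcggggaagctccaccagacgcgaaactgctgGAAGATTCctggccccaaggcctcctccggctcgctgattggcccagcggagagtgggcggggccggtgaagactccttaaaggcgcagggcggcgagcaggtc
Hspa1b, chr17:34959239-34959488: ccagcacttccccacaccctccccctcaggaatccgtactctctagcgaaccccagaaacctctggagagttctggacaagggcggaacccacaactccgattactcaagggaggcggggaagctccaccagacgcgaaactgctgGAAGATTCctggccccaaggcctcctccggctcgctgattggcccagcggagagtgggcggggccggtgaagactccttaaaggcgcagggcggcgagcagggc
The sequences differ at 3 of 250 positions. The letters GAANNTTC, on either strand, occur in 7.86% of 32851 RefSeq promoters of 300 bases (250 before and 50 after the gene start), and each of these 300-base promoters holds 1 match. A match is a description of the letters and not a bound site.

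Hspa1a was counted 28 times in the library labelled 12-month male and 254 times in the one labelled 12-month female, against 3 and 2 UMIs in the 6-week male and female. In CPM these are 448 and 709 at 12 months, against 43.6 and 24.7 at 6 weeks, with a mean of 579 ± 185 CPM at 12 months and 34.1 ± 13.4 CPM at 6 weeks (SD, n = 2 each). The groups do not overlap, and the Poisson intervals of the libraries are apart, the lowest bound at 12 months being 298 CPM and the highest at 6 weeks 128 CPM. The log2 fold change was 4.11 ± 0.54 (SE), with an adjusted p of 0.00584 by edgeR, higher in 2 of 2 libraries. Hspa1a passed the filter on low counts through its 12-month sums alone, so a gene this low at 6 weeks could be tested only if it was high at 12 months.

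Hspa1b had 49 and 424 UMIs at 12 months, or 784 and 1184 CPM, against 7 and 16 UMIs, or 102 and 197 CPM, at 6 weeks. Both 12-month libraries again stand above both 6-week libraries. Of the 6-week sums, only the female one reached the level that the filter on low counts asks for. Hspa1b was thus tested only because a 12-month sum was high enough. The log2 fold change was 2.71 ± 0.44 (SE), with an adjusted p of 0.0264 by edgeR. A single cell supplied much of these counts: the cell with most Hspa1a UMIs held 46.4% and 42.9% of them in the libraries labelled 12-month male and female, and for Hspa1b 55.1% and 41.0%. Without the cell richest in both genes in each library, the log2 fold changes were 3.91 for Hspa1a and 2.76 for Hspa1b. The adjusted p was 0.00919 each by edgeR, so both calls were kept. This alternative was chosen after seeing the data and took the richest cell out of the 6-week sums too, which helps to keep the ratio.

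Gdf15 is a distant member of the TGF-beta family that many tissues secrete under stress. It lies on chromosome 8 from 70629393 to 70632456 (GRCm38, minus strand). The 250 bases before its start, from RefSeq (GRCm38.p6), are shown for comparison with the pair of heat shock genes and hold no match to GAANNTTC, which is why nothing is in capitals.
Gdf15, chr8:70632457-70632706: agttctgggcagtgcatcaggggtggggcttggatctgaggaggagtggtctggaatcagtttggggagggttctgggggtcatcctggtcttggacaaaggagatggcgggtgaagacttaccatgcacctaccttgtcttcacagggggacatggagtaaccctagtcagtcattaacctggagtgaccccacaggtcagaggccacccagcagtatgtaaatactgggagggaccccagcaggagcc
That says only that these letters are not in this window. Gdf15 had 126 and 1351 UMIs at 12 months, or 2016 and 3772 CPM, against 50 and 33 UMIs, or 727 and 407 CPM, at 6 weeks. It was already among the genes that set these cells apart in the 6-week libraries, where the other barcodes had 31.7 and 23.8 CPM. The log2 fold change in lymphatic endothelium was 2.36 ± 0.40 (SE), with an adjusted p of 0.0291 by edgeR. Leaving out cells that held markers of other types brought the adjusted p to 0.0541 by edgeR. Subtracting free RNA, taken as an assumed 10% of each sum, brought it to 0.0593.

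**Figure D2:**
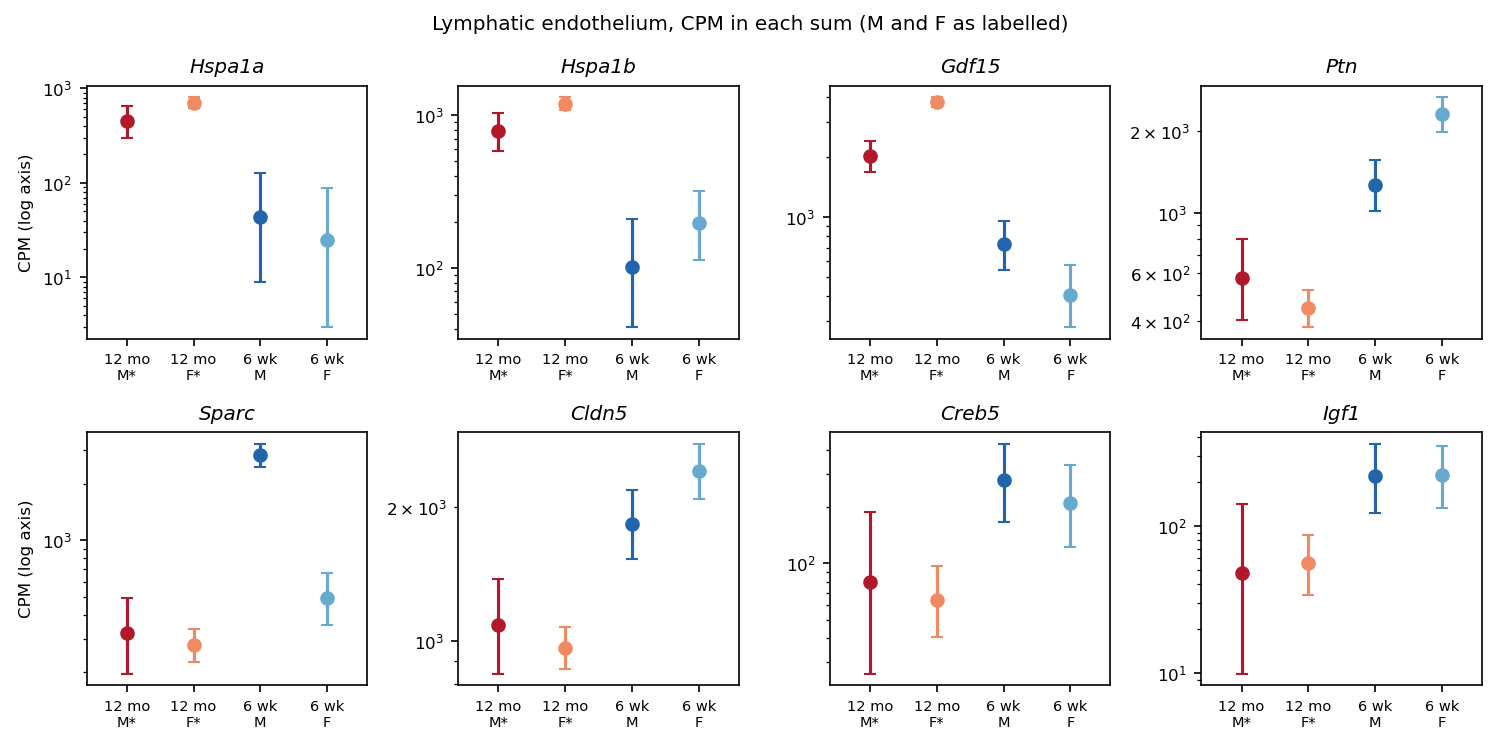
CPM of 8 genes in the gated cells of each library on a log axis, with exact 95% Poisson intervals; 12 months is left of 6 weeks, M and F are the labelled sexes, and the asterisk marks labels that the sex genes go against. Hspa1a, Hspa1b and Gdf15 passed the threshold, and the other 5, all lower in both 12-month libraries, did not.

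The share of cells with at least 1 UMI was compared after each cell was thinned to 1000 UMIs, which left out 1 cell. Hspa1b was found in 42.9% of 14 and 56% of 50 cells at 12 months, against 0 of 12 cells, which allows up to 26.5% by the exact interval, and 6.25% of 16 cells at 6 weeks. Hspa1a was found in 21.4% and 28% of cells at 12 months, against 8.33% and 0% at 6 weeks. Gdf15 was found in 50% and 66% of cells at 12 months, against 41.7% and 12.5% at 6 weeks. So at 12 months the HSP70 genes were not found in the richest cell alone. For Hspa1a the exact intervals overlap, with 4.66 to 50.8% in the library labelled 12-month male and 0.211 to 38.5% in the 6-week male library. For Hspa1b the library labelled 12-month male, at 17.7 to 71.1%, overlaps the 6-week female library, at 0.158 to 30.2%. The Hspa1b interval of the library labelled 12-month female, 41.3 to 70.0%, lies above those of both 6-week libraries. In the other barcodes, of similar or lower median depth except in the library labelled 12-month female, Hspa1b was found in 17.7% and 9.74% at 12 months, against 6.38% and 14.0% at 6 weeks. Before thinning, Hspa1b was found in 66.7% and 88% of lymphatic endothelial cells at 12 months, against 41.7% and 43.8% at 6 weeks. Median depths of the gated cells were 2455 and 5505.5 UMIs at 12 months, against 4981.5 and 4556 UMIs at 6 weeks.

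**Figure D3:**
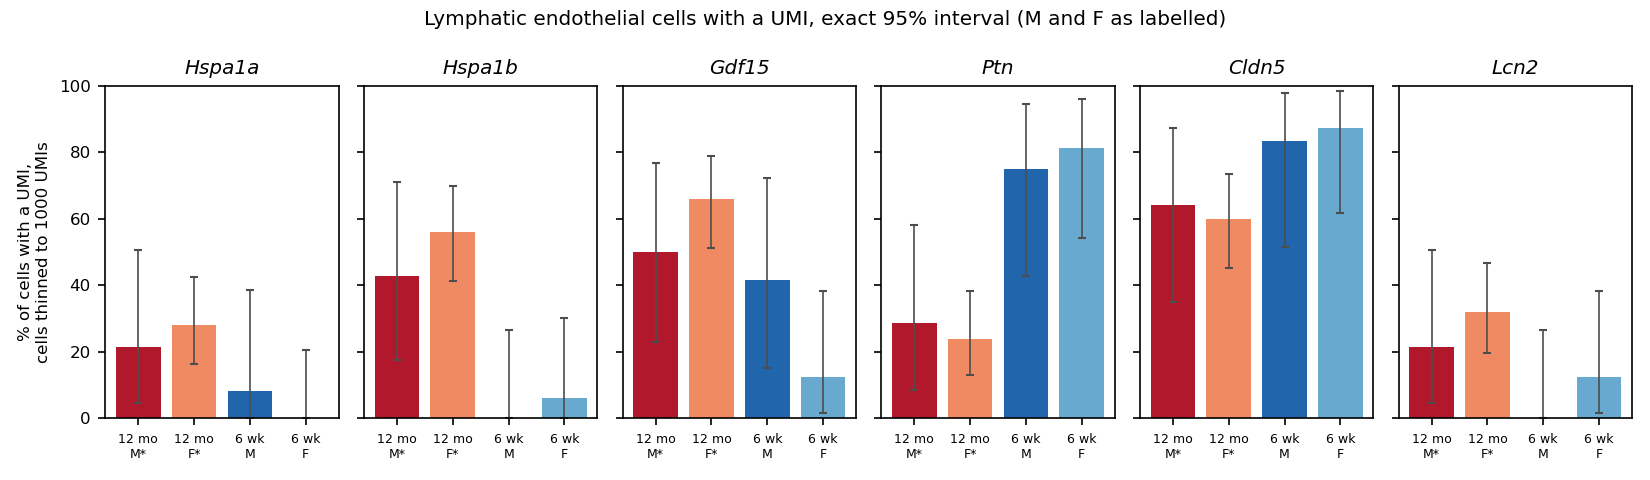
Share of lymphatic endothelial cells with at least 1 UMI of each gene after thinning to 1000 UMIs, as bars from 0 to 100% with exact 95% binomial intervals; 12 months is left of 6 weeks, and the asterisk marks labels that the sex genes go against. Hspa1b is at 42.9% and 56% in the 12-month libraries and at 0% and 6.25% in the 6-week libraries, while Ptn is at 28.6% and 24% in the 12-month and 75% and 81.3% in the 6-week libraries.

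No gene passed the threshold downwards, so the 5 genes of smallest p that were lower in both 12-month libraries are given as values that did not pass. With labelled sex as a covariate, 3 of them passed by edgeR: Ptn (adjusted p 2.84e-05), Sparc (0.00012) and Cldn5 (0.0217), and with the 12-month labels exchanged Ptn (0.0002) and Sparc (4.55e-05) did, while Cldn5 had 0.0625. Ptn, coding for the growth factor pleiotrophin, had 576 and 447 CPM at 12 months, against 1266 and 2293 CPM at 6 weeks. Its log2 fold change was -1.84 ± 0.35 (SE), with an adjusted p of 0.0512 by edgeR and 0.00257 by DESeq2. It was found in fewer thinned cells at 12 months, 28.6% and 24%, against 75% and 81.3% at 6 weeks. In the other barcodes Ptn had 47.7 and 52.3 CPM at 12 months, against 10.5 CPM in the 6-week male and 536 CPM in the 6-week female library.

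Cldn5, the main claudin of endothelial tight junctions, had 1088 and 966 CPM at 12 months, against 1833 and 2404 CPM at 6 weeks (log2 fold change -1.07 ± 0.28, adjusted p 0.199 by edgeR). Igf1, insulin-like growth factor 1, had 48.0 and 55.8 CPM at 12 months, against 218 and 222 CPM at 6 weeks (-2.01 ± 0.55, adjusted p 0.199). Creb5, a transcription factor of the CREB family, had 80.0 and 64.2 CPM at 12 months, against 276 and 210 CPM at 6 weeks (-1.81 ± 0.49, adjusted p 0.199). Each has both 12-month libraries below both 6-week libraries, and Igf1 and Creb5 rest on 3 to 23 UMIs a library. Igf1 and Creb5 passed the filter on low counts through their 6-week sums alone. Genes this low at 12 months could be tested only if they were high at 6 weeks.

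Sparc, a collagen-binding matrix protein, had 320 and 276 CPM at 12 months, against 2822 CPM in the 6-week male and 493 CPM in the 6-week female library. Its log2 fold change was -2.53 ± 0.62, with an adjusted p of 0.145 by edgeR. The 6-week male library is the one with high fibroblast markers, and without it the log2 fold change was -0.71. With cells that held markers of other types left out, it was -1.11 ± 0.34 (adjusted p 0.316 by edgeR). The fibroblast collagens Col1a2 and Col3a1 show the same split: Col3a1 had 240 and 5.58 CPM at 12 months, against 2604 and 12.3 CPM at 6 weeks.

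**Figure D4:**
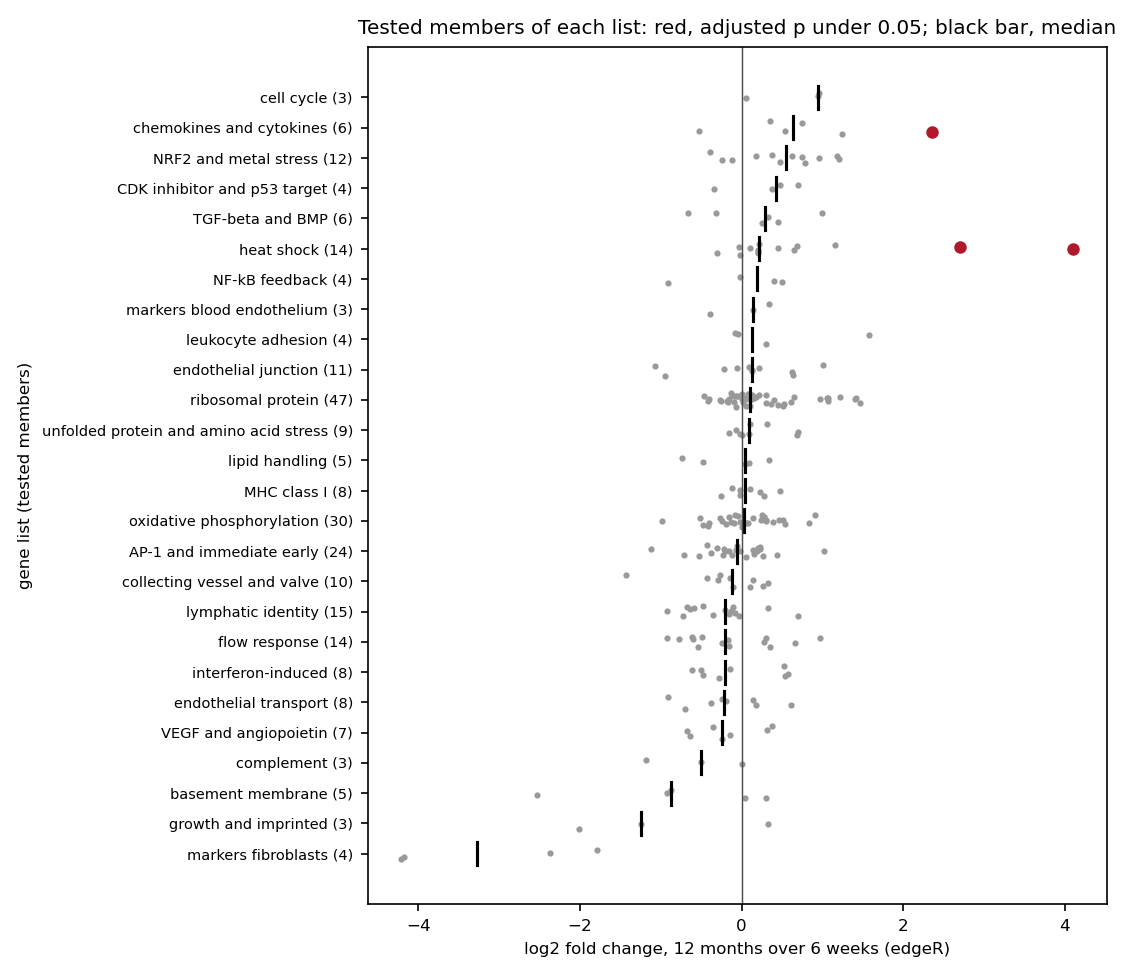
Log2 fold change (12 months over 6 weeks, edgeR) of each tested member of the gene lists with at least 3 tested members; red points have an adjusted p under 0.05, and black bars are list medians. The 3 red points are Hspa1a and Hspa1b in the heat shock list and Gdf15 among the chemokines and cytokines.

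In the heat shock list, 14 of 18 chaperone genes were tested and 2 were called, both higher, against 0.228% of all genes tested. That share is made of 3 calls that include these 2, which are near-identical copies, so the comparison is not independent. The median log2 fold change of the 14 was 0.21, beside 0.02 over all genes tested, 11 were fitted above 0, and 7 had both 12-month libraries above both 6-week libraries while none had the reverse (22.3% and 19% over all genes). Hspb1, a small heat shock protein, had 736 and 1468 CPM at 12 months, against 451 and 555 CPM at 6 weeks (log2 fold change 1.15 ± 0.40, adjusted p 0.349 by edgeR). Hspa8, the constitutive HSP70, had 1984 and 2688 CPM at 12 months, against 2328 and 2379 CPM at 6 weeks (-0.02 ± 0.29). The co-chaperone gene Dnajb1 had 224 and 329 CPM at 12 months, against 204 and 505 CPM at 6 weeks. So within the list the calls were the inducible HSP70 pair, and the others did not pass.

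Among genes of oxidant and metal stress, 12 of 20 were tested and none was called (edgeR, 3 higher and 0 lower at an unadjusted p under 0.05), with a median of 0.55. Sqstm1, an autophagy adaptor, had 592 and 597 CPM at 12 months, against 276 and 234 CPM at 6 weeks (log2 fold change 1.20 ± 0.37, adjusted p 0.269 by edgeR). Txnrd1, thioredoxin reductase 1, had 288 and 444 CPM at 12 months, against 175 and 160 CPM at 6 weeks. The peroxiredoxin gene Prdx1 had 928 and 851 CPM at 12 months, against 451 and 444 CPM at 6 weeks. The 6-week values lie below both 12-month values for these 3 genes. Hmox1 does not follow them, with 272 and 279 CPM at 12 months, against 0 and 345 CPM at 6 weeks. Of the 12 tested genes, 6 had both 12-month libraries above both 6-week libraries and 0 had the reverse (22.3% and 19% over all genes). Summed over the 20 genes, however, the list had 15774 and 13866 CPM at 12 months, against 16016 and 14165 CPM at 6 weeks. Its total was thus not higher at 12 months. The other barcodes changed in the direction of the list median, with a median of 1.14 for the list, 1.32 for Sqstm1 and 1.29 for Txnrd1. Of the unfolded protein list, 9 of 17 were tested and none was called; Hspa5, the chaperone of the endoplasmic reticulum, had 1520 and 1734 CPM at 12 months, against 815 and 1184 CPM at 6 weeks. In the immediate early list, 24 of 27 were tested, none was called, and the median was -0.06. Fos had 1744 and 2016 CPM at 12 months, against 2022 and 2342 CPM at 6 weeks, and Atf3 had 1936 and 1530 CPM, against 887 and 2010 CPM.

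Of the chemokines and cytokines, 6 of 29 were tested and Gdf15 was the single call, beside 0.228% of all genes tested, a share that includes it. Ccl2, which recruits monocytes, had 48.0 CPM in the library labelled 12-month male and 720 CPM in the one labelled 12-month female, against 305 and 74.0 CPM at 6 weeks. Csf3, the granulocyte growth factor, was not tested, since a single sum had enough counts for the filter, with 4 and 202 UMIs at 12 months, against 0 and 1 UMIs at 6 weeks. Cxcl1 had 80.0 and 466 CPM at 12 months, against 393 and 111 CPM at 6 weeks. For Ccl2 and Cxcl1 the libraries of 1 age lie further apart than the ages. Icam1, the leukocyte adhesion molecule, had 272 and 382 CPM at 12 months, against 102 and 123 CPM at 6 weeks (log2 fold change 1.57 ± 0.42, adjusted p 0.199 by edgeR). It passed the filter on low counts through its 12-month sums alone. Selp had 0 and 37 UMIs at 12 months, against 0 and 3 UMIs at 6 weeks.

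The genes of lymphatic identity outside the gate gave no call: 15 of 28 were tested, 13 were fitted below 0, and the median was -0.20. Both 12-month libraries were below both 6-week libraries for 5 of the 15 (19% over all genes), among them Thy1, Nrp2, a co-receptor for VEGF-C, and the receptor gene Tie1. Thy1 had 160 and 154 CPM at 12 months, against 305 and 284 CPM at 6 weeks (log2 fold change -0.92 ± 0.37, adjusted p 0.456 by edgeR). Of the collecting vessel and valve genes, 10 of 24 were tested and none was called. Fn1, a matrix protein of valve leaflets, had 224 and 182 CPM at 12 months, against 698 and 358 CPM at 6 weeks (-1.43 ± 0.42, adjusted p 0.223 by edgeR, 0.101 with labelled sex as a covariate and 0.0425 with the 12-month labels exchanged). Foxc2 had 240 and 106 CPM at 12 months, against 175 and 74.0 CPM at 6 weeks, and the gap junction gene Gja1 had 640 and 343 CPM, against 436 and 579 CPM.

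None of 14 tested flow-response genes was called, with a median of -0.21. Klf2, a transcription factor induced by laminar flow, had 1200 and 1544 CPM at 12 months, against 2371 and 1763 CPM at 6 weeks (log2 fold change -0.60 ± 0.30, adjusted p 0.592 by edgeR). Klf4, its relative, had 2400 and 2317 CPM at 12 months, against 2531 and 2651 CPM at 6 weeks. The endothelial nitric oxide synthase gene Nos3 had 176 and 154 CPM at 12 months, against 175 and 185 CPM at 6 weeks. Among 11 tested junction genes none was called; Ctnna1, alpha-catenin, had 528 and 424 CPM at 12 months, against 145 and 308 CPM at 6 weeks.

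Of 47 ribosomal protein genes, all tested, none was called, 17 were higher in both 12-month libraries and 4 lower (22.3% and 19% over all genes), and the median was 0.10. With labelled sex as a covariate 7 of the 47 were called by edgeR, all higher (1.75% over all genes), and 2 with the 12-month labels exchanged (0.911%). Rpl38 was at the top, with 2160 and 2825 CPM at 12 months, against 829 and 1036 CPM at 6 weeks (log2 fold change 1.41 ± 0.30, adjusted p 0.108 by edgeR). The change of Rpl38 in the other barcodes was 1.36. The 30 tested genes of oxidative phosphorylation had a median of 0.03 and no call. Nor was there a call in MHC class I (8 tested), interferon-induced genes (8 tested), VEGF and angiopoietin genes (7 tested), growth genes (3 tested) or the cell cycle (3 tested). Igf2 and H19, imprinted growth genes, had 0 UMIs in all 4 sums, under the floor of 3 counts.

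Each change was then set against that of all other kept barcodes of the same libraries, and against blood endothelium, 978 cells gated by Pecam1 and Cdh5 without the lymphatic genes. No gene differed in its change from the other barcodes (0 of 1317, 0.0%; edgeR, 49 at an unadjusted p under 0.05; DESeq2 called 2, Hspa1a and Cxcl2), and none from blood endothelium (0 of 1317, 0.0%; 57 unadjusted; 0 by DESeq2). Leaving out 1 library gave 1 to 39 and 2 to 13 calls. Taken alone, the other barcodes had no call in 14314 genes (0.0%), and blood endothelium had 8 in 6258 (0.128%), 5 higher at 12 months (0.0799%) and 3 lower (0.0479%), by edgeR. Hspa1a came nearest to the threshold in both: its change exceeded that of the other barcodes by 4.36 ± 0.73 and that of blood endothelium by 3.58 ± 0.62 on the log2 scale, with adjusted p of 0.299 and 0.149 by edgeR. In the other barcodes Hspa1a had 197 and 137 CPM at 12 months, against 124 and 239 CPM at 6 weeks, so the 6-week lymphatic endothelium had less of it than its surroundings.

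Hspa1b exceeded the change of the other barcodes by 2.01 ± 0.58 and Gdf15 by -0.08 ± 0.40, with adjusted p of 1.00 each by edgeR. In blood endothelium Hspa1b had 365 and 173 CPM at 12 months, against 74.6 and 88.9 CPM at 6 weeks, a log2 fold change of 1.71 ± 0.33 (adjusted p 0.0667 by edgeR), and the change in lymphatic endothelium exceeded it by 1.20 ± 0.61 (adjusted p 1.00 by edgeR). After thinning it was found in 21.4% and 10.8% of blood endothelial cells at 12 months, against 6.97% and 5.93% at 6 weeks. The log2 fold change of Gdf15 in the other barcodes was 2.86 ± 0.69, which did not pass either (adjusted p 0.643 by edgeR). Its levels there were 83.6 and 282 CPM at 12 months, against 31.7 and 23.8 CPM at 6 weeks. These other barcodes also held Prox1, at 6.08 CPM in the library labelled 12-month male and 105 CPM in the one labelled female. At 6 weeks they held 3.10 and 5.50 CPM of it. How much of their Gdf15 came from lymphatic cells outside the gate was not tested. In blood endothelium Gdf15 had 29.0 and 202 CPM at 12 months, against 67.8 and 51.3 CPM at 6 weeks. Creb5 had opposite signs, -1.81 in lymphatic endothelium and 0.58 in the other barcodes, a difference of -2.07 ± 0.45 (adjusted p 0.299 by edgeR). In lymphatic endothelium it was tested only because its 6-week sums were high.

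**Figure D5:**
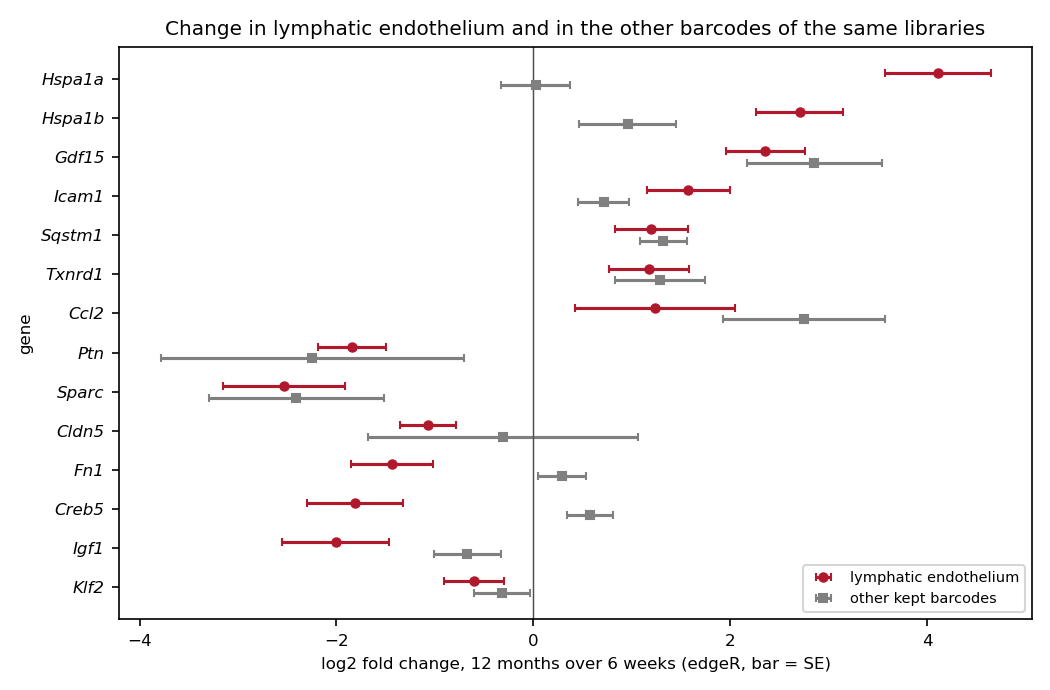
Log2 fold change (12 months over 6 weeks, edgeR, bars are SE) of 14 genes in lymphatic endothelium (circles) and in all other kept barcodes of the same libraries (squares). Hspa1a is at 4.11 in lymphatic endothelium and 0.02 in the other barcodes, while Gdf15 is at 2.36 and 2.86. No difference between the cell groups passed the threshold by edgeR. The other barcodes of the library labelled 12-month female held Prox1, a gene of the gate, at 105 CPM.

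Free RNA, measured in barcodes of 10 to 100 UMIs, held Hspa1a at 267 and 99.4 CPM in the 12-month libraries, against 149 and 312 CPM in the 6-week libraries. It held Gdf15 at 151 and 289 CPM at 12 months, against 71.2 and 40.4 CPM at 6 weeks. The 12-month lymphatic endothelium is above its own free RNA for both genes, while Hspa1a in the 6-week cells is below it. With free RNA subtracted, the log2 fold change of Hspa1a was 5.31 and that of Gdf15 was 2.34. The subtraction took free RNA as 10% of every sum, an assumed share that was not estimated from the cells. With 3 and 2 UMIs of Hspa1a at 6 weeks, its value after subtraction depends on that share.

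The libraries of 1 age also differed. Over the 1317 genes, with 10 CPM added, 11.5% differed by more than 2-fold between the 12-month libraries and 14.7% between the 6-week libraries. Ccl2 was 15.0 times higher in the library labelled 12-month female than in the one labelled male (exact interval 5.08 to 73.2, counting error only). Ccnd1, cyclin D1, had 226 CPM in the library labelled female, against 16 CPM in the one labelled male, and Csf3 had 564 CPM, against 64.0 CPM. In the other direction, Ly6a had 2.79 CPM in the library labelled female, against 208 CPM in the one labelled male. Prc1, a gene of dividing cells, had 0 UMIs in the library labelled female, against 12 in the one labelled male.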

How the data were processed

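The deposited matrices hold UMI counts per gene and barcode, not normalized, which the authors made, per the file headers, with Cell Ranger 3.0.2 against mm10, with all 6794880 barcodes listed per library and no cell calling. The labels name v2 chemistry, while that many barcodes belong to a later kit. The submitters' processing notes also name Seurat, without a version. Here 31053 gene IDs became 31017 symbols (71 IDs sharing a symbol were summed), and 31011 IDs were found in GENCODE M21, from which coordinates were taken.

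Gated cells' UMIs were summed per library, since cells are not replicates, and the 2 sums of each age were compared with edgeR 4.0.16 (TMM factors, filterByExpr, quasi-likelihood F test, R 4.3.3). Calls have an adjusted p under 0.05. Each SE of an edgeR log2 fold change was derived, as its absolute value divided by the square root of the F statistic. Differences in change between cell groups were tested as a cell group by age term with library as a block. DESeq2 1.42.0 was an alternative. Intervals of counts are exact Poisson and of shares exact binomial (Clopper-Pearson, 95%), covering counting error only. Scripts were tested on simulated data. Doublets were marked with Scrublet in scanpy 1.11.5 (6% expected) and kept. Python 3.11.15, matplotlib 3.10.9, pandas 2.3.3, scipy 1.17.1 and numpy 2.4.6 were used.

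The cell rule, the gene lists and the tests were chosen with earlier results of these data known. Named genes were calls of at least 50 CPM with no overlap between ages (where a direction had under 3, the 5 of smallest p), up to 2 tested genes of smallest p per list, a list of single genes, calls in the tests between cell groups, and, for each direction, the 6 or fewer genes that differed by the largest ratio between the 12-month libraries at 100 CPM or more. Hspb1, Hspa8, Dnajb1 and Prdx1 were added after their values were seen.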

Additional observations from a re-analysis of the deposited data

Results flagged for a closer look

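The 18-month libraries were outside the comparison, and their mice came from another supplier. In the 18-month library labelled male, 59 lymphatic endothelial cells had levels of the 3 called genes above the Poisson intervals of both 6-week libraries. Gdf15 stood at 1815 CPM there, Hspa1a at 635.8 CPM and Hspa1b at 939.8 CPM. The 18-month library labelled female had 5 gated cells, 1 of which held 83.2% of their UMIs, and gives no usable level. With the 59 cells added to the fit, 8 of 2111 genes tested were called for 12 months against 6 weeks, among them the same 3. The 18-month library had its own term in that fit. The comparison thus rested on the same 12-month and 6-week sums, and the return of the 3 genes lends them no support.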

How the results depend on the processing

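Hspa1a, Hspa1b and Gdf15 kept their direction in all 22 alternatives, with log2 fold changes of 3.59 to 5.31, 2.27 to 3.25 and 1.73 to 2.90 (edgeR or DESeq2). Not all of these could move the result. No gated cell of the compared libraries was a marked doublet, and the added 18-month library had its own term. The fits with 1 library left out lend no support, as said above. Hspa1a, Hspa1b and Gdf15 were also called less widely than they kept their direction. Their calls were lost with the cell richest in Gdf15 left out of each library, an alternative chosen after seeing the data (adjusted p 0.0657, 0.165 and 0.202), and with at most 5% mitochondrial UMIs (adjusted p 0.12 each), where the count fell to 0 (105 at an unadjusted p under 0.05). A filter of at least 20 UMIs in 2 sums gave 1 call and lost Hspa1b and Gdf15, and free RNA subtraction gave 8 and lost Gdf15. The cause was not tested. No filter on low counts gave 44 calls (11772 genes tested), labelled sex as a covariate 29, with the 12-month labels exchanged 18, sums thinned to 1 depth 13, a gate of 2 UMIs 7, and the added 18-month library 8. Leaving out each replicate gave 13 to 45 calls, and in the tests between cell groups 1 to 39 (other barcodes) and 2 to 13 (blood endothelium). DESeq2 called 2 genes in the test against the other barcodes. Shares after thinning were 2.51% in the library labelled 12-month female and 0.163% in the 6-week female library.

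Among 70 genes and 1487 gene values, 36 turned direction, and none of these was called in the comparison. With 1 library left out at a time, the log2 fold change ran over -0.018 to 0.58 for Emcn, -0.085 to 1.10 for Ccl7, -1.54 to 1.00 for H2-Q4, -2.01 to 2.66 for Ccl2 and -1.70 to 1.58 for Cxcl1, each lowest without the library labelled 12-month female. It ran over -0.72 to 0.11 for H2-D1 and -3.03 to 0.043 for Cxcl2, highest without the one labelled 12-month male, and -0.47 to 0.24 for Gja1, highest without the one labelled 12-month female. It was highest without the 6-week male library for Serping1 (-1.21 to 0.83), Col3a1 (-7.64 to 2.84) and Dcn (-2.79 to 2.66), and lowest without it for Hmox1 (-0.28 to 8.47), B2m (-0.20 to 0.52) and Atf3 (-0.21 to 0.90). Without the 6-week female library it was highest for Cd74 (-2.02 to 1.89) and lowest for Cd36 (-0.53 to 2.26) and Foxc2 (-0.27 to 1.03). Outside these, mixed cells left out turned Cd74 (0.10), Cxcl2 (0.065) and Fos (0.051), and leaving out the cell richest in Hspa1a and Hspa1b turned Serping1 (0.24), Cd36 (-0.046), Cxcl2 (0.16) and Fos (0.0054). No filter turned Klf4 (0.023), Nos3 (0.039) and Gja1 (0.028), a gate of 2 UMIs turned Cd36 (-0.49) and Gja1 (0.034), and a gate of 5 UMIs turned Nos3 (0.24). At most 5% mitochondrial UMIs turned Cxcl1 (-0.24) and Foxc2 (-0.12), and thinned sums Cxcl1 (-0.20). A fit of 3 ages with at least 20 gated cells in every library was not run, since 2 libraries have that many. No paired analysis was possible because the labels carry no replicate numbers; matching by labelled sex was fitted only as the covariate above. With 12 to 50 cells a library, genes under the filter on low counts could not be tested, and a miss of the threshold does not show that levels were alike.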

Other observations

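Lcn2, which codes for the iron-binding protein lipocalin-2, was outside the gene lists and is named here after its values were seen. It had 416 and 628 CPM at 12 months, against 87.3 and 185 CPM at 6 weeks, with a log2 fold change of 1.94 ± 0.44 and an adjusted p of 0.131 by edgeR, which was 0.00512 with labelled sex as a covariate and 0.00273 with the 12-month labels exchanged. As with Hspa1b, Lcn2 was tested only because a 12-month sum was high enough for the filter on low counts. It was found in 21.4% and 32% of thinned cells at 12 months, against 0% and 12.5% at 6 weeks. In the other barcodes of the same libraries it was found in 5.71% and 7.62% at 12 months, against 0.203% and 2.01% at 6 weeks.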
